A study of Homo sapiens with 4 samples.

Results

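The proteasome is the protease that degrades ubiquitin-marked proteins, and its subunits, activators and assembly factors are described here in K562 cells before and after hemin. The genes were chosen by name: every gene whose symbol is PSMA to PSMG followed by a number, together with POMP and ADRM1, which gave 50 of the 61498 genes of the annotation. The rule uses names only and no measured level. K562 is an established human erythroleukemia cell line, and hemin, the oxidized form of heme, induces it to differentiate along the red cell lineage. Poly(A) RNA was sequenced from 2 untreated libraries, labelled white, and from 2 libraries of cells kept with 50 µM hemin for 108 h, labelled red. All cells were grown in RPMI medium with fetal calf serum, and the labels state that this hemin concentration left proliferation unaffected. Nothing in the labels says that the 2 replicates of a group came from separate cultures, so p-values measure only the spread between these libraries, which may be technical. All 9 erythroleukemia line markers searched, among them GATA1, KLF1 and the embryonic and fetal globins, were expressed, and CD3E, CD2, MS4A1, ELANE and MPO, markers of other blood lineages, were at 0 in all 4 libraries. The epithelial marker EPCAM, at 288 to 319 counts, and the fibroblast marker COL1A2, at 72 to 121 counts, were detected in every library.

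The core particle of the proteasome is a barrel in which outer rings of alpha subunits gate the entry of proteins and inner rings of beta subunits carry the proteolytic sites. The regulatory particle caps the barrel. Its base unfolds substrates with a ring of ATPases and holds ubiquitin receptors, and its lid removes the ubiquitin chain. Other caps, the activators PSME1 to PSME4, open the core without ubiquitin, interferon replaces the catalytic beta subunits with immuno forms, and dedicated chaperones build the core and the base. In maturing red cells the ubiquitin-proteasome pathway removes excess globin chains and takes part in the remodelling of the cell.

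The 50 genes comprised 8 of the alpha ring, 7 of the constitutive beta ring, 4 immuno or thymic beta subunits, 6 base ATPases, 4 other base subunits and ubiquitin receptors, 8 lid subunits, 5 activators and inhibitor, 5 core assembly factors and 3 base assembly factors. The summed expected counts, RSEM's estimates of reads per gene, were 7801824 and 7455447 in the untreated libraries and 7513843 and 8241534 in the hemin-treated ones. Of the 50 genes, 46 passed the count filter, with 64 to 3684 counts in a library, and 4 did not. Exons of 21 members overlapped a gene on the opposite strand and those of 9 members a gene on the same strand. No source used here says that the counting used strand, so it is not known whether the reads of such overlaps were told apart by strand. The posterior SD that RSEM gives for the division of shared reads was above 2% of the count in 3 tested members, PSMC1, PSMB10 and PSMA2.

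After hemin, the activator gene PSME1 fell to 0.663 of its untreated level, and 6 members rose by 13.3% to 26.6%: the activator PSME3, the core chaperones PSMG1 and PSMG2, the base ATPases PSMC2 and PSMC5, and the base scaffold subunit PSMD1. The other 39 tested members had an adjusted p of 0.05 or more in edgeR's quasi-likelihood test, which was fitted over all 14458 genes that passed the filter. Thus 13% of the tested members were called higher and 2.17% lower, against 7% higher and 7.14% lower among all genes tested. No member changed 2-fold. In RNA of a whole culture, a change in the share of cells that express a gene and a change in RNA per cell cannot be told apart.

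Most members had a small positive change. The log2 fold change, hemin over untreated, was positive in 37 of 46 tested members, or 80.4%, and in 49.1% of all genes tested. Its median was 0.069 over the members and -0.0048 over all genes tested, and the members ranged from -0.59 to 0.34. In CPM, counts scaled to library size after TMM adjustment, both hemin-treated libraries lay above both untreated ones in 26 members, or 56.5%, against 28.1% of all genes tested. They lay below in 3 members, PSME1, PSME2 and PSMD10, or 6.52%, against 29.3% of all genes tested, and overlapped in 17. Before adjustment, 15 members had a p below 0.05 in the upward direction and 2 in the downward direction. When no TMM factor was applied, the median over all genes tested was -0.0434, 4 members were called higher in place of 6, and the calls over all genes became 729 higher and 1358 lower in place of 1012 higher and 1033 lower.

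**Figure D1:**
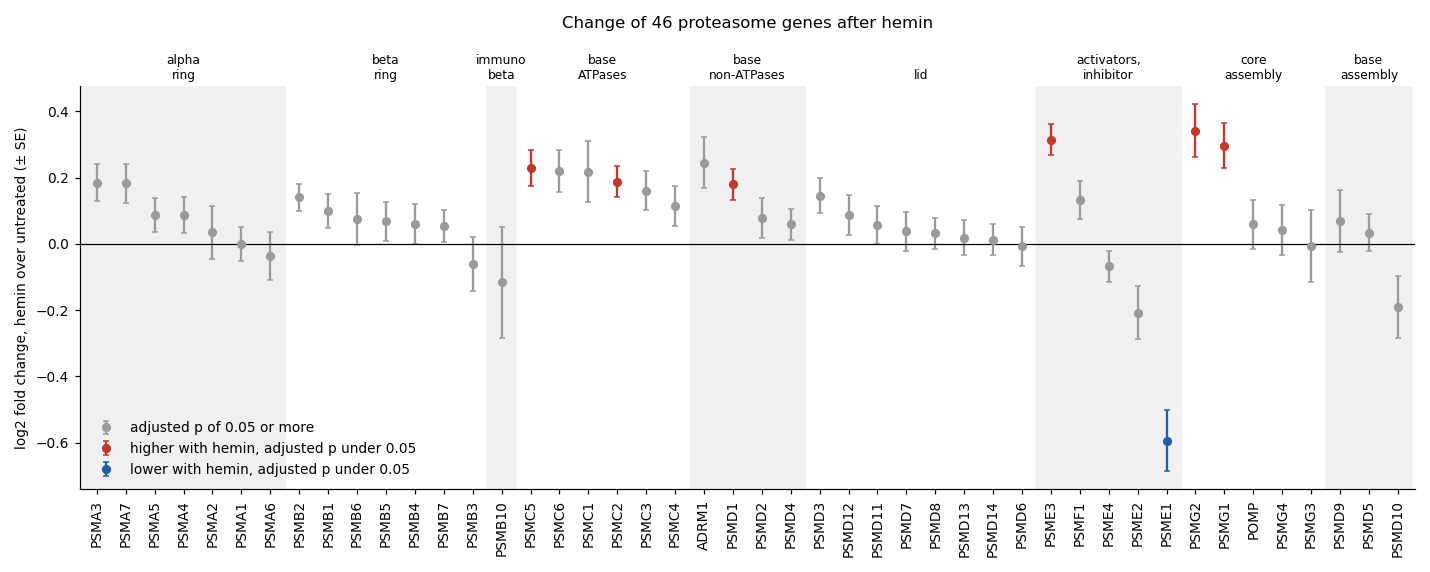
Log2 fold change of the 46 tested proteasome genes (vertical axis, hemin over untreated, bars ± SE of the edgeR fit), sorted within the groups named above the plot. Red points mark the 6 genes higher and the blue point the 1 gene lower at an adjusted p under 0.05, and all 6 base ATPases lie above 0.

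Promoters were examined for the genes that were called and for the catalytic pairs of the core. RefSeq promoter windows of 300 bases on GRCh38.p14, from 250 bases before the transcript start to 50 after it, were found for 44 of the 50 members, in 54 windows, since some genes have several starts. PSMA7, PSMB1, PSMB6, PSMB7, PSMD4 and PSMG3 had no window in the table. The stretches printed below end 30 bases after the start, and capitals mark the letters of 4 short motifs, each searched on both strands: the antioxidant response element core TGACNNNGC, which NRF-type factors and BACH1 bind with small MAF proteins; the CCAAT box CCAAT, which NF-Y binds; a STAT-type element TTCNNNGAA; and an interferon regulatory factor type element GAAANNGAA. No match of one motif overlapped a match of another. PSME1 (chr14:24135944-24136223, plus strand) and PSME3 (chr17:42833147-42833426, plus strand) are shown because they moved in opposite directions, PSMG1 (chr21:39183422-39183701, minus strand) and PSMC2 (chr7:103347393-103347672, plus strand) as called genes of the assembly factors and the base, and PSMB10 (chr16:67936821-67937100, minus strand) and the downstream of the 2 windows of PSMB8 (chr6:32844018-32844297, minus strand) as immuno subunits, the first detected and the second at 0. All are written 5′ to 3′ on the strand of the gene.
PSME1: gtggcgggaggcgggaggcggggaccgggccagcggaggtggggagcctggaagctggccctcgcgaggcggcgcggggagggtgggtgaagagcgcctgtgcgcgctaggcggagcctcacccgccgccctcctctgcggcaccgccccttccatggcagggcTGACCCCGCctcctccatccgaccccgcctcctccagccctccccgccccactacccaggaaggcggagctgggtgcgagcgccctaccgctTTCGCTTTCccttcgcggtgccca
PSME3: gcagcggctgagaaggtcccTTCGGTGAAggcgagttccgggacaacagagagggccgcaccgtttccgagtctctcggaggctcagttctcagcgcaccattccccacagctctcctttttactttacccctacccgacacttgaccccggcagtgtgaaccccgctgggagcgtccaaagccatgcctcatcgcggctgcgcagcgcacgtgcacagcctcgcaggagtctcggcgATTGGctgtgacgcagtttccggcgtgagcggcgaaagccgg
PSMG1: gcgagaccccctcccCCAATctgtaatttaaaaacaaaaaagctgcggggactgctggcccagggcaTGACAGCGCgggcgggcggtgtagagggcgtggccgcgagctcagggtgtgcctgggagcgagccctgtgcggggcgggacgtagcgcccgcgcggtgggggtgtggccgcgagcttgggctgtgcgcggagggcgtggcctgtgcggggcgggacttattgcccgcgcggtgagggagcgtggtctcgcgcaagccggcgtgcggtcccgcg
PSMC2: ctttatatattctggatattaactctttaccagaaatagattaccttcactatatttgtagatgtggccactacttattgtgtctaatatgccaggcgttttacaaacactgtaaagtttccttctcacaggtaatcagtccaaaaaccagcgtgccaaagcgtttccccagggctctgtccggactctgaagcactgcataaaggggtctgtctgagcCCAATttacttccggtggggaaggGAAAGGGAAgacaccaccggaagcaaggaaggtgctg
PSMB10: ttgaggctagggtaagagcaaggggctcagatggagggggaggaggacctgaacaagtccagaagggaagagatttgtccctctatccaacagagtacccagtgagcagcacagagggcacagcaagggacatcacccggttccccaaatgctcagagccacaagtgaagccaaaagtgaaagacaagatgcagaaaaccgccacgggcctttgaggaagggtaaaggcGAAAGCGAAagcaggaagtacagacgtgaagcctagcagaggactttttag
PSMB8: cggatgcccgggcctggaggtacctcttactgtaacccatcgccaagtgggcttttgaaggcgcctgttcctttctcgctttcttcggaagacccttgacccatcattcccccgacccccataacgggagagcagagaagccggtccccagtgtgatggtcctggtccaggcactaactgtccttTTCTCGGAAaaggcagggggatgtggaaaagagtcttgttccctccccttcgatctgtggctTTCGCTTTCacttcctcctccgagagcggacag

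The PSME1 window held 1 antioxidant response element core and, just after the start, 1 interferon regulatory factor type element on the opposite strand. The PSME3 window held neither of these, and had a CCAAT box on the opposite strand next to the start and a STAT-type element far upstream. Over the members, the antioxidant response element core was found in 16 of the 44 genes with a window and in 31.5% of their 54 windows, against 13.3% of 35116 windows of all genes. The CCAAT box was in 40.7% of the members' windows against 34.6% of all, the STAT-type element in 14.8% against 7.66%, and the interferon regulatory factor type element in 16.7% against 8.11%. Of the 7 called members, 5 held the antioxidant response element core (PSME1, PSMG1, PSMG2, PSMC5 and PSMD1) and 4 the CCAAT box (PSME3, PSMG1, PSMC2 and PSMC5). The first set includes both the member that fell and members that rose. The median G and C content was 62.3% in the members' windows and 58.7% in all windows, so the shares of motifs are over windows of unequal base composition. A match is a run of letters, not a bound site.

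In the core particle, no subunit passed the test in the reported setting, although PSMA3 and PSMB2 each passed it in 5 of 14 alternatives. With 7% of all genes tested called higher and 7.14% lower, 0 calls in so short a list is not far from that share. Of the 14 alpha and constitutive beta subunits tested, 12 had a positive log2 fold change, and the median was 0.071. By CPM, 8 of 14 were higher in both hemin-treated libraries, against 28.1% of all genes tested. In the alpha ring, the highest value was that of PSMA3, a gate-ring subunit with expected counts of 606 and 575 in the untreated libraries and of 649 and 701 in the hemin-treated ones. By CPM its groups did not overlap, the log2 fold change was 0.18 ± 0.0552 (SE), and the edgeR adjusted p of 0.0539 missed the threshold. PSMA6 had the lowest value of the ring, with 567 and 598 counts untreated and 568 and 574 with hemin, groups that overlapped, and a log2 fold change of -0.037 ± 0.0719.

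In the beta ring, PSMB2, a subunit without a proteolytic site, had 1699 and 1596 counts in the untreated libraries and 1754 and 1896 in the hemin-treated ones. Its groups did not overlap by CPM, and its log2 fold change of 0.14 ± 0.0411 had an edgeR adjusted p of 0.0515. PSMB3, also non-catalytic, lay at the other end with 461 and 508 counts untreated, 445 and 490 with hemin, overlapping groups and a log2 fold change of -0.061 ± 0.0805. The TPM of the constitutive core, a level per transcript length that can be summed over genes, added up to 2070 and 2143 untreated and to 2184 in each hemin-treated library. The groups did not overlap, and the exact two-sided permutation test gave p = 0.333, the smallest that 2 libraries against 2 allow.

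**Figure D2:**
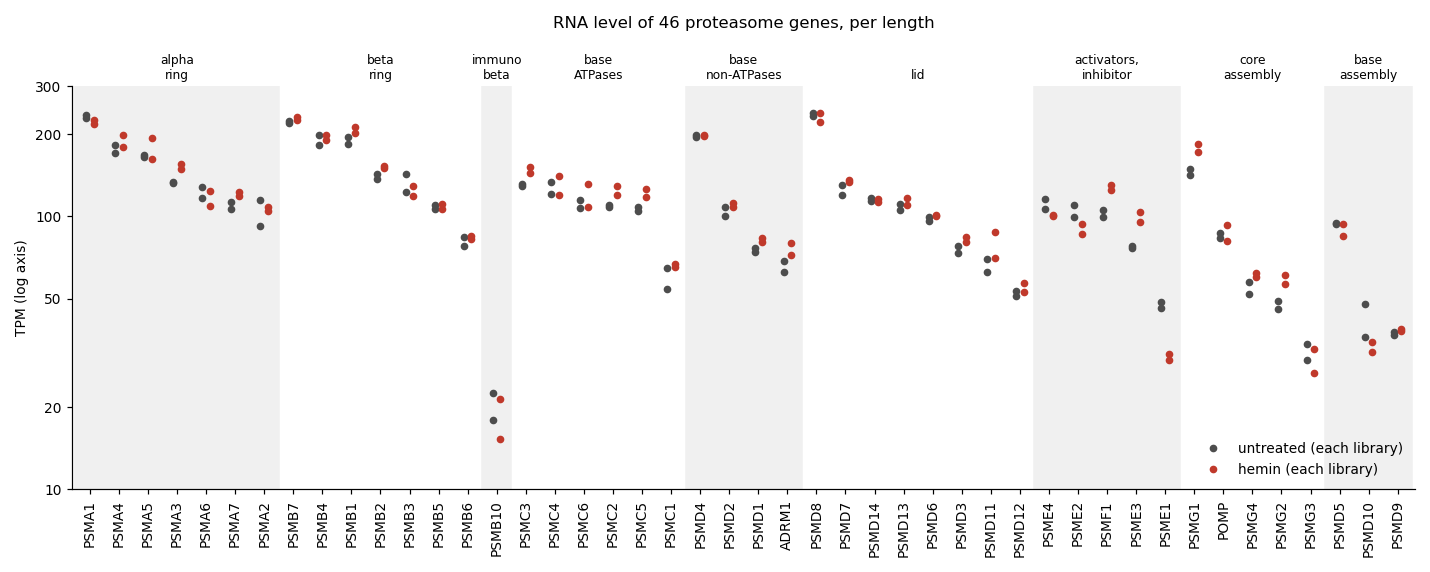
TPM of the 46 tested proteasome genes in each untreated (gray) and hemin-treated (red) library on a logarithmic axis, sorted by untreated level within each group. In untreated cells the constitutive core subunits span 81.2 to 232 TPM, and PSMB10 is the lowest of all tested members.

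Although each subunit enters the particle in equal number, the RNA levels were unequal. In the untreated libraries the mean TPM of the constitutive core subunits ran from 81.2 for PSMB6 to 232 for PSMA1, a 2.86-fold range. It ran from 59.4 for PSMC1 to 130 for PSMC3 among the ATPases and from 52.2 for PSMD12 to 236 for PSMD8 in the lid. PSMC1 is an uncertain value, as shown for it later. Assembly factors were mostly lower, with a median of 54.7 TPM for the core chaperones and 41.9 for the base chaperones, against 137 for the core subunits themselves. Altogether 40 members had more than 50 TPM in all 4 libraries. TPM also rests on a transcript length estimated in each library, and that length differed by more than 1.1-fold between libraries in 13 members. This showed in PSMD11, where it differed 1.3-fold and the log2 ratio was 0.26 by TPM but 0.058 in the count fit, and in PSMF1, with 0.32 by TPM and 0.13 in the count fit. The sign of the 2 measures differed in 5 members.

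The proteolytic sites of the core are carried by PSMB6, PSMB7 and PSMB5 in the constitutive particle and by PSMB9, PSMB10 and PSMB8 in the immunoproteasome. The constitutive subunits were abundant in all libraries, and of the immuno subunits only PSMB10 was expressed above a few counts. PSMB5, the chymotrypsin-like subunit and the target of bortezomib, had 109.9 and 106.1 TPM untreated and 110.9 and 106.9 with hemin. PSMB6, the caspase-like subunit, had 78.1 and 84.4 TPM untreated and 82.5 and 84.8 with hemin. PSMB7, the trypsin-like subunit, had 219 and 224 TPM untreated and 232 and 225 with hemin. The log2 fold changes of the 3 in the count fit were 0.068 ± 0.0597, 0.074 ± 0.0783 and 0.0545 ± 0.0484, with edgeR adjusted p of 0.505, 0.586 and 0.509.

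PSMB8 had 0 counts in all 4 libraries. An observed 0 still allows 3 counts, which for PSMB8 would be 0.401 to 0.44 TPM, or at most 0.414% of PSMB5 in the same library. This limit covers counting error only. PSMB9 had 0 and 3 counts in the untreated libraries and 0 and 1 in the hemin-treated ones, so no fold change is given. PSMB11, the thymic subunit, and PSMA8, the testis form of the alpha subunit PSMA7, had 0 counts throughout, which allows up to 0.308 TPM for PSMB11 and 0.326 TPM for PSMA8. PSMB10 had 82 and 71 counts untreated and 64 and 78 with hemin, in groups that overlapped. Its log2 fold change was -0.12 ± 0.168 with an edgeR adjusted p of 0.704, the posterior SD of its count was 4.26% and its estimated length varied 1.27-fold between libraries. Relative to PSMB7, its TPM was 0.103 and 0.0802 in the untreated libraries and 0.066 and 0.0951 in the hemin-treated ones, which also overlapped (exact two-sided permutation p = 0.667). The windows printed above show an interferon regulatory factor type element next to the start in both PSMB10 and PSMB8, the detected and the undetected gene.

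**Figure D3:**
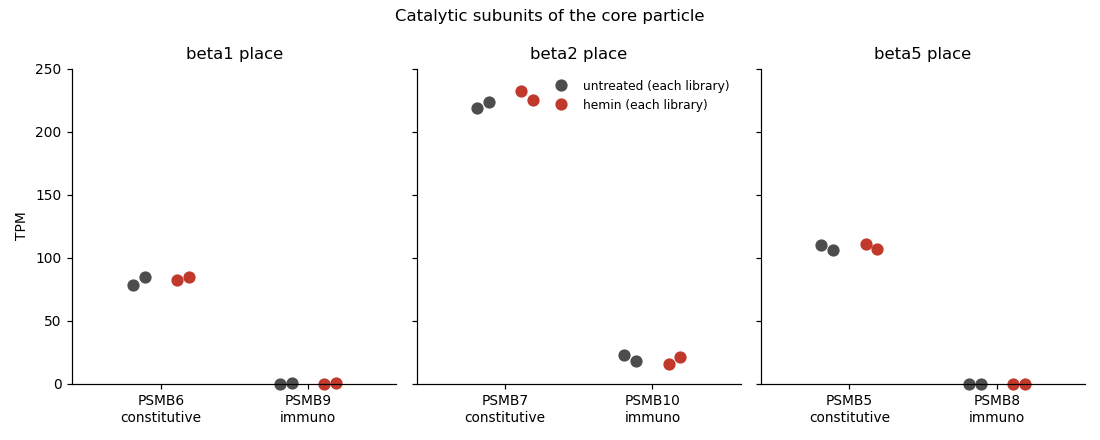
TPM of each constitutive catalytic subunit and of the immuno subunit that takes its place in the core, in each untreated (gray) and hemin-treated (red) library, on a linear axis from 0. PSMB9 and PSMB8 lie at or next to 0 in all libraries, and PSMB10 lies at 22.6 TPM or less where PSMB7 is at 219 or more.

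The ATPase ring of the base was the group with the highest median. All 6 ATPases had a positive log2 fold change, and the median was 0.20 against -0.0048 for all genes tested. By CPM all 6 were higher in both hemin-treated libraries, against 28.1% of all genes tested. PSMC2 and PSMC5 passed the test, 2 of 6, where 7% of all genes tested were called higher. PSMC5 had 706 and 672 counts in the untreated libraries and 796 and 826 in the hemin-treated ones, or 89.3 and 89.7 CPM against 107 and 102. The groups did not overlap, and the log2 fold change was 0.23 ± 0.0541 with an edgeR adjusted p of 0.0236. PSMC2 had 1013 and 973 counts untreated and 1090 and 1184 with hemin, or 128 and 130 CPM against 147 in both hemin-treated libraries, again without overlap. Its log2 fold change was 0.19 ± 0.0463 with an edgeR adjusted p of 0.0273.

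The lowest of the ring was PSMC4, with 923 and 906 counts untreated, 1007 and 982 with hemin, and a log2 fold change of 0.11 ± 0.0614 (edgeR adjusted p = 0.257). By CPM its groups were barely apart, with 121.0 in untreated replicate 2 and 121.7 in hemin replicate 2. PSMC6 just missed the threshold at an adjusted p of 0.0503, and PSMC3 had 0.105. PSMC1 shares reads with its pseudogene PSMC1P1, to which RSEM gave 316.4 and 391.9 counts in the untreated and 384.9 and 433.3 in the hemin-treated libraries. The posterior SD of PSMC1 was 8.71% of its count and its log2 fold change 0.22 ± 0.0929 (edgeR adjusted p = 0.154). When the counts of both were added, they came to 709 and 727 untreated and 825 and 842 with hemin, and the edgeR adjusted p was 0.0519, an alternative chosen after the data were seen. The pseudogenes named after members numbered 43, of which 25 were at 0 and 3 had more than 10 counts in a library.

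The calls of these 2 ATPases were lost when single libraries were left out. Without untreated replicate 1, untreated replicate 2 or hemin replicate 1 the edgeR adjusted p of PSMC5 was 0.0971, 0.0836 and 0.0913, and PSMC2 missed the threshold without any one library (0.111, 0.0779, 0.0677 and 0.0862 in the order untreated 1, untreated 2, hemin 1, hemin 2). Without hemin replicate 2, in turn, PSMC6, ADRM1, PSMC1 and PSMC3 passed it at 0.0277, 0.045, 0.0429 and 0.0445. The summed TPM of the ring was 640 and 647 in the untreated libraries and 736 and 686 in the hemin-treated ones, without overlap (exact two-sided permutation p = 0.333, the smallest possible).

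The non-ATPase subunits of the base followed the same direction, with 4 of 4 positive, a median of 0.13 and 1 call. In so short a list, 1 call is not far from the 7% of all genes tested that were called higher. PSMD1, the scaffold on which the base is organized, had 1210 counts in each untreated library and 1317 and 1441 in the hemin-treated ones. By CPM it rose from 153 and 162 to 178 and 179, so the groups did not overlap, and the log2 fold change was 0.18 ± 0.047 with an edgeR adjusted p of 0.0335. The call was lost without untreated replicate 1 (0.163), hemin replicate 1 (0.0604) or hemin replicate 2 (0.101). ADRM1, a ubiquitin receptor, had the highest value of the group, 460 and 492 counts against 566 and 568, with a log2 fold change of 0.24 ± 0.0768 and an edgeR adjusted p of 0.0638. PSMD4, also a ubiquitin receptor, had the lowest, 1346 and 1224 counts against 1277 and 1414, with 0.058 ± 0.0456. PSMD2, the second large scaffold, had 0.077 ± 0.0609 and overlapping groups.

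The lid was nearly level, with a median log2 fold change of 0.035 and 7 of 8 tested subunits positive. None of the 8 was called. Beside 7% called higher and 7.14% lower among all genes tested, 0 in so short a list is not far off. PSMD3, a structural lid subunit, had the highest value, with 899 and 809 counts untreated, 923 and 976 with hemin, no overlap by CPM and a log2 fold change of 0.15 ± 0.0521 (edgeR adjusted p = 0.095). PSMD6 had the lowest, 760 and 755 counts against 703 and 813, which overlapped, and -0.0080 ± 0.0575. PSMD14, the deubiquitinase of the lid, had 0.0125 ± 0.0472. The remaining lid subunits PSMD7, PSMD8, PSMD11, PSMD12 and PSMD13 lay between these extremes. The lid and the ATPase ring were not compared by a test, and without the TMM factor the median of the lid was -0.0041 and that of the ATPases 0.16.

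The activators held both the gene with the smallest adjusted p that rose and the only member called lower. In a list of 5, 1 call each way is not far from the 7% higher and 7.14% lower among all genes tested. By CPM, 2 of the 5 lay above and 2 below in both hemin-treated libraries, against 28.1% and 29.3% of all genes tested. PSME1 and PSME2 encode the alpha and beta subunits of PA28, an interferon-inducible cap linked to the production of antigenic peptides, PSME3 encodes the nuclear cap PA28 gamma, PSME4 the nuclear activator PA200, and PSMF1 the core-binding inhibitor PI31. PSME1 (chr14:24136163-24138967, plus strand, GENCODE 44 on GRCh38) had 251 and 231 counts in the untreated libraries and 156 and 165 in the hemin-treated ones. By CPM these were 31.7 and 30.9 against 21.0 and 20.5, and the groups did not overlap. The log2 fold change was -0.59 ± 0.0915, with an edgeR adjusted p of 0.0039. The exons of PSME1 overlap those of EMC9 on the opposite strand, and the posterior SD of its count was 0.

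PSME2, the partner of PSME1 and close to it on the same chromosome (chr14:24143362-24147570, minus strand), had 345 and 324 counts untreated and 292 and 290 with hemin. The groups did not overlap by CPM, and the log2 fold change of -0.21 ± 0.0803 had an edgeR adjusted p of 0.118. PSME3 (chr17:42824385-42843760, plus strand) had 925 and 859 counts in the untreated libraries and 1075 and 1155 in the hemin-treated ones. By CPM it went from 117 and 115 to 145 and 143, with no overlap, and its log2 fold change was 0.31 ± 0.0476 with an edgeR adjusted p of 0.0037. Its exons overlap those of BECN1 on the opposite strand, and the posterior SD of its count was 0.0242%.

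PSME4 was the member with the most counts, not scaled by length, 3684 and 3252 untreated and 3140 and 3512 with hemin, groups that overlapped, with a log2 fold change of -0.068 ± 0.0457 (edgeR adjusted p = 0.372). PSMF1 had 604 and 599 counts untreated and 640 and 686 with hemin, without overlap by CPM, and 0.13 ± 0.0574 (edgeR adjusted p = 0.16). The RNA levels of the cap genes can be compared as a ratio of TPM within each library, a measure chosen after the values of both genes were seen. No protein or assembled cap was measured. The TPM of PSME1 was 0.622 and 0.605 of that of PSME3 in the untreated libraries and 0.302 and 0.311 in the hemin-treated ones. The ratio of PSME1 to PSME2 was 0.488 and 0.421 untreated and 0.334 and 0.345 with hemin. Neither ratio overlapped between the groups, and each had the smallest exact two-sided permutation p that the design allows, 0.333. The summed TPM of the 5 genes was 448 and 439 against 459 and 438, which overlapped.

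**Figure D4:**
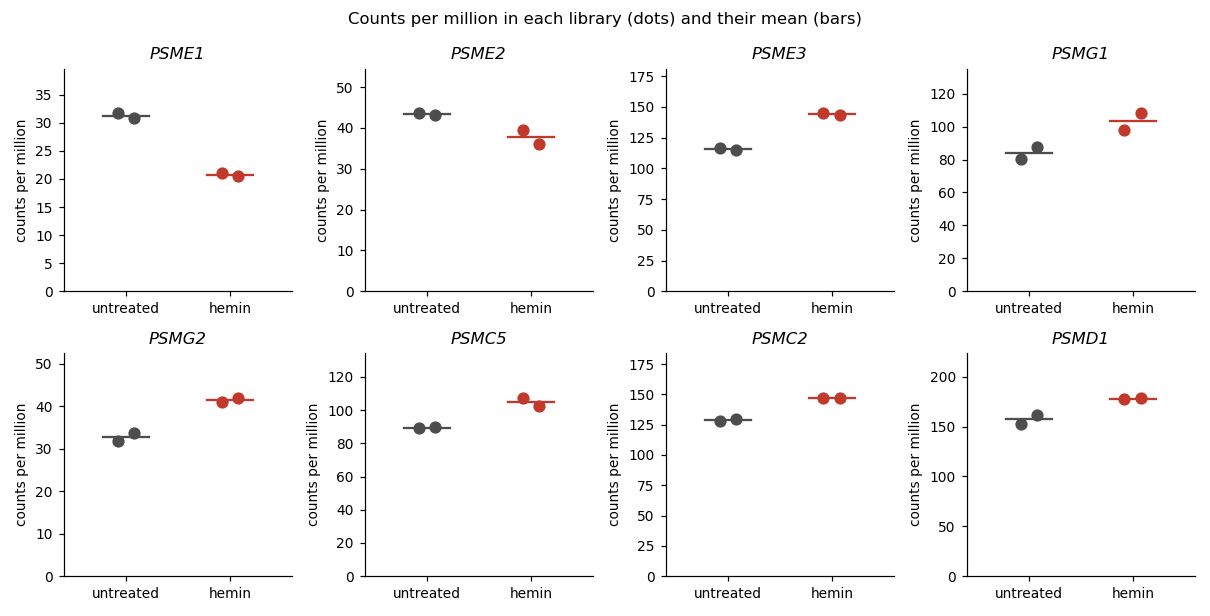
CPM after TMM scaling (vertical axes from 0) in each of the 2 untreated (gray) and 2 hemin-treated (red) libraries, with the mean as a bar, for the 7 called genes and PSME2, the partner of PSME1. In all 8 panels the groups do not overlap, which choosing the 7 called genes by a test on the same counts favors. Among all genes tested, both hemin-treated libraries lay above both untreated ones in 28.1% and below in 29.3%. PSME1 lies at 31.7 and 30.9 CPM untreated and at 21.0 and 20.5 with hemin.

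Among the assembly factors of the core, the chaperone pair PSMG1 and PSMG2, which act together on the alpha ring, was higher after hemin. The other factors did not pass the test. Thus 2 of 5 were called higher, where 7% of all genes tested were called higher. By CPM, 3 of the 5 were higher in both hemin-treated libraries, against 28.1% of all genes tested. PSMG1 had 637 and 658 counts in the untreated libraries and 728 and 873 in the hemin-treated ones, or 80.5 and 87.9 CPM against 98.2 and 108. The groups did not overlap, hemin replicate 2 was the highest, and the log2 fold change was 0.30 ± 0.0682 with an edgeR adjusted p of 0.0209. PSMG2 had 252 counts in each untreated library and 304 and 338 in the hemin-treated ones, or 31.9 and 33.7 CPM against 41.0 and 41.9, again without overlap. Its log2 fold change of 0.34 ± 0.0799 was the highest of all members, with an edgeR adjusted p of 0.0226.

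The second chaperone pair stayed close to 0. PSMG3 had the lowest value of the group, with 193 and 163 counts untreated, 179 and 177 with hemin, overlapping groups and -0.0065 ± 0.108, and PSMG4 had 0.041 ± 0.0759. POMP, which brings beta subunits into the half-assembled core and is degraded as the core matures, had 0.059 ± 0.0736 and overlapping groups. The summed TPM of the 5 factors was 356 and 373 in the untreated and 419 and 411 in the hemin-treated libraries, without overlap (exact two-sided permutation p = 0.333, the smallest possible). The call of PSMG1 was lost without untreated replicate 1 (edgeR adjusted p = 0.125) or hemin replicate 2 (0.0912), and that of PSMG2 without untreated replicate 1 (0.118), untreated replicate 2 (0.0615) or hemin replicate 2 (0.0688).

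The base assembly factors went different ways. PSMD10, or gankyrin, had 245 and 261 counts untreated and 220 and 226 with hemin, lay lower in both hemin-treated libraries by CPM, and had a log2 fold change of -0.19 ± 0.0944 (edgeR adjusted p = 0.218). PSMD9 had the highest value, 186 and 177 counts against 184 and 199, with 0.069 ± 0.0932, and PSMD5 had 0.034 ± 0.0555 with overlapping groups. The median of the 3 was 0.034, and it changed sign with the scaling: without the TMM factor it was -0.0047.

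The calls differed in how far they depended on the libraries and the test. PSME1 and PSME3 were called in 12 of 14 alternatives, that is by edgeR under every other setting, by DESeq2 and without any one library, and missed the threshold in both limma fits to log2 TPM, where the highest adjusted p was 0.07 for PSME1 and 0.111 for PSME3. PSMG1 was called in 10, PSMG2 and PSMC5 in 8, PSMD1 in 7 and PSMC2 in 6 of 14. In these alternatives the log2 fold change stayed between -0.64 and -0.57 for PSME1, between 0.28 and 0.36 for PSME3, between 0.22 and 0.37 for PSMG1 and between 0.30 and 0.38 for PSMG2. DESeq2 called 3 members, PSME1, PSME3 and PSMG1.

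**Figure D5:**
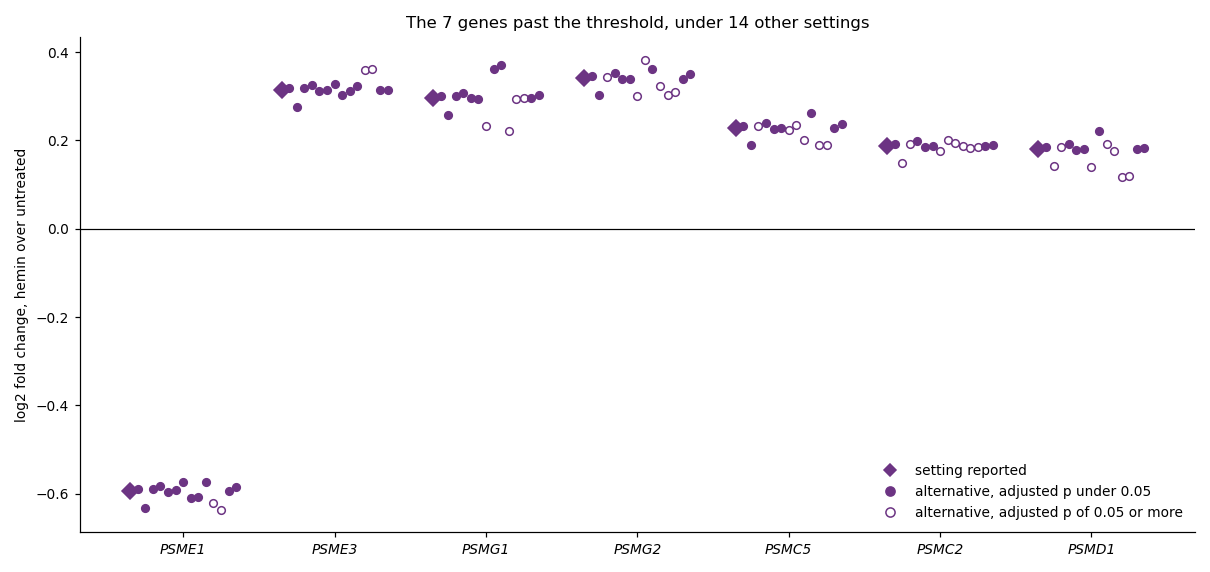
Log2 fold change (hemin over untreated) of the 7 called genes under the reported setting (diamond) and 14 alternatives (circles), filled where the adjusted p is under 0.05 and open where it is not. The estimates keep their sign throughout, and PSME1 and PSME3 have 2 open circles each.

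Proteins that work with the proteasome but lie outside the naming rule were taken from a list of 26, of which 25 were tested, 7 were called higher and 1 lower, against 7% and 7.14% of all genes tested. Their median log2 fold change was 0.11. Genes that rose included ECPAS (0.33 ± 0.0431), which tethers core and regulatory particle, TXNL1 (0.35 ± 0.0547), a thioredoxin-like protein of the regulatory particle, PITHD1 (0.28 ± 0.0642), which shares a domain with TXNL1, USP14 (0.17 ± 0.0469), a deubiquitinase of the regulatory particle, the shuttle UBQLN4 (0.25 ± 0.0664) and the unfoldase VCP (0.21 ± 0.0428). Their edgeR adjusted p ran from 0.0018 for ECPAS to 0.042 for USP14. PAAF1, a chaperone of the base ATPases, had 216 and 209 counts untreated and 157 and 152 with hemin, and fell by 0.47 on the log2 scale (SE 0.102, edgeR adjusted p = 0.0166). The small lid subunit SEM1, which the naming rule does not take in, had -0.0009 ± 0.0861.

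Of 13 transcription regulators linked to proteasome genes, all tested, 2 were called higher and 2 lower, which in so short a list is not far from the 7% and 7.14% of all genes tested. NFE2L1, which encodes the factor NRF1 that raises proteasome genes when the proteasome is inhibited, had 971 and 883 counts untreated and 760 and 800 with hemin, and fell by 0.26 on the log2 scale (SE 0.0524, edgeR adjusted p = 0.0128). Its relative NFE2L3 went from 163 and 175 counts to 123 and 114 and fell by 0.52 (SE 0.128, edgeR adjusted p = 0.0269). The posterior SD of the NFE2L3 count was 4.5%, and its estimated length varied 1.33-fold between libraries. BACH1, the heme-binding repressor of antioxidant response elements, had 0.21 ± 0.0577 (edgeR adjusted p = 0.0414), and NFYC, a subunit of NF-Y, had 0.30 ± 0.0639 (edgeR adjusted p = 0.0148). NFE2L2 had 0.14 ± 0.0792 and was not called.

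Of 12 interferon and antigen processing genes, 10 were tested. The log2 fold change was negative in 9 of them, whereas 49.1% of all genes tested had a positive one. By CPM 8 lay lower in both hemin-treated libraries, against 29.3% of all genes tested. Only B2M, the light chain of MHC class I, was called, with 1714 and 1716 counts untreated, 1398 and 1494 with hemin and -0.25 ± 0.046 (edgeR adjusted p = 0.0076). In so short a list, 1 call is not far from the 7.14% of all genes tested that were called lower. The median of the 10 genes was -0.27, to be set beside -0.59 for PSME1, -0.21 for PSME2 and -0.12 for PSMB10, the interferon-inducible members that were tested. Some of the 10 are uncertain values. ISG15 had 19 and 18 counts untreated and 9 and 5 with hemin, and ERAP2 had 19 and 16 against 9 and 6. The posterior SD of IRF9 was 9.74% of its count. Whether these values share a source was not tested.

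The members were spread over 18 chromosomes. Chromosome 14 held 8 of them (PSMA3, PSMA6, PSMB5, PSMB11, PSMC1, PSMC6, PSME1 and PSME2) and chromosome 17 held 7, among them PSMC5 and PSME3. The 7 called genes lay on chromosomes 2, 7, 14, 17, 18 and 21.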

How the data were processed

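Poly(A) RNA of 2 untreated and 2 hemin-treated K562 libraries was analyzed from the deposited tables of RSEM. The authors trimmed 50-base reads with Trimmomatic 0.39 and quantified them with RSEM 1.3.1, calling STAR, on Ensembl 106 and GRCh38. The submitters' processing notes name STAR 2.7.5c. In the deposited expected counts, which are not normalized, RSEM estimates how many reads came from each gene and splits reads that match several genes. Posterior mean counts and a posterior standard deviation (a score) were deposited beside them and express how certain that split is. The authors' TPM is a level scaled by effective length to a constant sum, and the authors' FPKM by length and depth. Effective lengths, in bases, were deposited as other values. The authors' mean TPM columns and mean FPKM tables were used only for gene names or not at all.

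Here expected counts were rounded, filtered by filterByExpr (14458 genes), scaled by TMM and tested by the quasi-likelihood method of edgeR 4.0.16 in R 4.3.3, with condition as the only term, Benjamini-Hochberg adjustment over all genes tested and a threshold of 0.05. limma 3.58.1, DESeq2 1.42.0 and exact permutation tests in scipy 1.17.1 were also used. The fit was tested on simulated counts. Sums and ratios were taken per library. Total counts of 7455447 to 8241534 per library set the precision, and limits from 3 counts cover counting error only. GENCODE 44, which held all 50 member IDs, gave coordinates on GRCh38.

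The members, their groups, the other lists and the motifs were chosen with earlier results of these data known. Values of every library are given for called members, the highest and lowest of each group, the catalytic subunits, the activators and members left out by the filter. Of the other lists, the called genes are named, except for 1 that is not reported here. Other members named with a value, SEM1 and NFE2L2 were added after their values were seen. Other settings tried were size factors of the RLE type or plain library size in place of TMM, DESeq2, dropping the filter or asking for 20 counts or more in all libraries of a condition, the replicate number as a block, omission of single libraries, limma on log2 TPM with pseudocounts of 1 and 0.1, RSEM's posterior mean counts, and an offset for effective length fitted by loess. Sums of TPM were repeated with CPM, and the ratio of PSMB10 to PSMB7 with posterior mean TPM and FPKM. The counts of PSMC1 with PSMC1P1 were added after the data were seen. Replicate numbers did not pair the libraries (correlation of their deviations 0.00473 over 14458 genes).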

Additional observations from a re-analysis of the deposited data

How the results depend on the processing

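Under the alternatives, PSME1 stayed lower and PSME3, PSMG1, PSMG2, PSMC5, PSMC2 and PSMD1 stayed higher in every fit, and what changed was whether they passed the threshold. In place of 6 members called higher and 1 lower, DESeq2 called 2 higher and 1 lower, both limma fits to log2 TPM called 0 and 0 (with 8 and 2 at an unadjusted p under 0.05), and no count filter, the filter of at least 20 counts, posterior mean counts and the length offset each called 10 higher, the 4 added being PSMA3, PSMB2, PSMC6 and ADRM1. Leaving out one library gave 1 to 6 members higher. Over all genes, in place of 1012 higher and 1033 lower, DESeq2 called 589 and 505, limma with a pseudocount of 1 called 14 and 33, limma with 0.1 called 15 and 34, and leaving out one library gave 469 to 934 higher and 512 to 884 lower. A library left alone was assumed to vary like those of the other condition. With the replicate number as a block, 855 genes were higher and 886 lower and the members' count of 6 higher and 1 lower was as before; the block changed no call of a member. The causes were not tested. The SE of a member's log2 fold change ran from 0.0411 to 0.168, with the highest in PSMB10, a member with few counts. A change larger than its SE could still miss the threshold, as for PSMB2 with 0.14 ± 0.0411 and an edgeR adjusted p of 0.0515. Small changes may thus have gone undetected in any member, and more so in those with few counts.

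Medians of the groups below moved by more than the spread between libraries in the settings named. For leaving out one library the full range is given, and some of its ends lay within that spread. Leaving out one library gave 0.054 to 0.11 for the alpha ring, 0.019 to 0.14 for the beta ring, 0.14 to 0.25 for the ATPases, 0.11 to 0.17 for the other base subunits, 0.018 to 0.054 for the lid, 0.036 to 0.15 for the core assembly factors, -0.023 to 0.0695 for the base assembly factors. Library size alone gave 0.048 for the alpha ring, -0.0041 for the lid, 0.021 for the core assembly factors, -0.0047 for the base assembly factors. The limma fits gave, with a pseudocount of 1, 0.067 for the lid, 0.16 for the core assembly factors, -0.14 for the activators, -0.076 for the base assembly factors, and with 0.1, 0.068 for the lid, 0.16 for the core assembly factors, -0.14 for the activators, -0.076 for the base assembly factors. Summed CPM in place of summed TPM changed the sign of the log2 ratio for the activators (from 0.017 to -0.0026) and the base assembly factors (from -0.10 to 0.0039). The other sums and the ratio of PSMB10 to PSMB7 kept their sign.

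Sign changes occurred only among members that were not called and lay near 0. Without one library the log2 fold change spanned 0 in 13 members: PSMA1 -0.044 to 0.047, PSMA2 -0.083 to 0.16, PSMA6 -0.11 to 0.045, PSMB3 -0.17 to 0.054, PSMB4 -0.011 to 0.14, PSMD11 -0.0016 to 0.12, PSMD13 -0.023 to 0.063, PSMD6 -0.054 to 0.041, PSMD7 -0.011 to 0.094, PSMD8 -0.0052 to 0.072, POMP -0.027 to 0.15, PSMG3 -0.082 to 0.0795, PSMD5 -0.023 to 0.099. Library size alone gave PSMA1 -0.038, PSMA2 -0.0036, PSMD13 -0.0196, PSMD14 -0.026, PSMD7 -0.00081, PSMD8 -0.0074, PSMD5 -0.0047. Limma with a pseudocount of 1 gave PSMA1 -0.062, PSMD14 -0.011, PSMD6 0.039, PSMD8 -0.036, PSMD5 -0.076. Limma with 0.1 gave PSMA1 -0.062, PSMD14 -0.012, PSMD6 0.039, PSMD8 -0.036, PSMD5 -0.076. The filter of at least 20 counts gave PSMA1 -0.0012. The replicate block gave PSMA1 -0.0013. Posterior mean counts gave PSMA1 -0.0012. No count filter gave PSMD6 0.004, PSMG3 0.0058. The length offset gave PSMD6 1.9e-05, PSMG3 0.0045.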
